A study of Mus musculus with 32 samples.

Results

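The genes described here are 41 cell cycle and mitosis genes, taken by symbol from the 55289 named genes that each of the authors' 5 deposited tables lists. All 41 were found in every table, but Tk1 (thymidine kinase, which recycles thymidine for DNA synthesis) and Prc1 (a microtubule bundler of the dividing cell's midzone) were listed at 0 in all 5, so 39 had values. The cardiomyocyte marker Actc1 was likewise listed at 0 in the heart table, and the B cell marker Ms4a1 in the spleen table. A listed 0 therefore need not mean that a gene's RNA was absent. The study compared mice deficient in Ftsj1, labelled Ftsj1_DF, with wild-type mice, labelled WT. Ftsj1 encodes a tRNA 2'-O-methyltransferase. The allele behind the deficiency and the strain are not given in the sources used here. All 14 mice were male and 4 months old, received no special treatment, and included brothers. Brain, heart, kidney and liver came from the same 6 mice, 3 of each genotype, and spleen from 8 other mice, 4 of each genotype, which made 32 libraries.

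The cell cycle copies the genome once and then divides it. Replication origins are licensed by loading the MCM helicase, cyclins switch on their kinases in turn, and the mitotic kinases, checkpoint proteins, kinetochores and spindle motors separate the chromosomes. Most of these genes are switched on together in dividing cells and are kept silent in resting cells by a complex that binds short promoter elements. Adult heart, brain, kidney and liver hold few dividing cells, while the spleen of the mouse makes blood cells throughout life.

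Degradome sequencing reads the 5' ends of poly(A) RNA that has no cap, as short tags. A value is therefore the amount of uncapped ends of a gene's RNA, not the level of its intact transcript. In these bulk samples, fewer cells of a type and less RNA per cell cannot be told apart. The authors' deposited tables give, for each organ, a mean normalised count over all libraries and a DESeq2 comparison of the genotypes, without values per library. The direction of the comparison is not stated in the tables. It was read as Ftsj1_DF over WT because Ftsj1 itself was negative in all 5 of the authors' deposited tables, with log2 fold changes between -3.38 and -1.56. Ftsj1 passed an adjusted p of 0.05 (DESeq2) in 3 of them and not in the heart (adjusted p = 0.594) or the kidney (adjusted p = 0.202). The means summed to between 48536401 and 73405489 per table, and the depth of single libraries is unknown.

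The tissue labels were checked against markers before the members were read. Hepatocyte markers such as Alb summed to 234512 parts per 1000000 (ppm) of the summed means in the table named for brain and to 2680 in the one named for liver. Neuronal markers summed to 15.6 in the former and to 1695 in the latter. The names of these tables therefore go against their contents, and they are called brain-named and liver-named here. Cardiomyocyte markers led in the heart table, proximal tubule markers in the kidney table and B cell markers in the spleen table. The spleen table also held tags of pancreatic acinar markers, at 110385 ppm.

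The promoters of the pair of members that passed the test are shown because both hold letters of the cell cycle homology region and CCAAT. That region is known to bind that repressor or its activating counterparts, while CCAAT is the box bound by the factor NF-Y. The sequences are RefSeq's, of build GRCm38.p6, whereas the authors counted on GRCm39. Each run is the 250 bases before the start of the gene, 5′ to 3′ on the gene's strand, and capitals mark matches on either strand to CCAAT and to the core of the cell cycle homology region. That core was searched as TTTGAA and, in its other common form, as TTCGAA.
Kif11 promoter, plus strand, chr19:37376132-37376381: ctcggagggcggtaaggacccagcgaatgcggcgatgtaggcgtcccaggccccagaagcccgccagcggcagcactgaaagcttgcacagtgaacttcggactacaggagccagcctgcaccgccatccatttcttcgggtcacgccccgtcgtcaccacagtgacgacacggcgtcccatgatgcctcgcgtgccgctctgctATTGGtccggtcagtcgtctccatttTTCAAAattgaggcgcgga
Bub1b promoter, plus strand, chr2:118597961-118598210: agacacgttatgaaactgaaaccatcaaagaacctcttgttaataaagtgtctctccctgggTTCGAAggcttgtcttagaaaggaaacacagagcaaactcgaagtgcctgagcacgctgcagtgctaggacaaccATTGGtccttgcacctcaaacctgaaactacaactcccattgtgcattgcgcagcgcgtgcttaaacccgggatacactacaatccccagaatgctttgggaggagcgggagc

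In Kif11, the CCAAT match lies 45 to 41 bases before the start and the TTTGAA match 19 to 14 bases before it. In Bub1b, TTCGAA lies 188 to 183 bases before the start and the CCAAT match 113 to 109 bases before it. Of the 41 members, 34 matched a RefSeq promoter by symbol. In the window from 250 bases before to 50 after the start, searched on both strands, CCAAT was present in a promoter of 25 of the 34 (73.5%) and of 41.1% of all 27025 genes in the RefSeq table, counted in the same way. The homology core was present in 17 (50%) against 21.7% of all genes, and all 17 of these also held CCAAT, a combination found in 8.61% of all genes. Any of the E2F-like motifs TTTCGCGC, TTTGGCGC, TTTCCCGC and TTTGGCGG, which partly overlap each other in their letters, was present in 8 (23.5%) against 2.7%. In the 250 bases before the start alone, the count with the core and CCAAT together was 10 (29.4%) against 7%. A match describes letters in the window and was not tested as a site.

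Tags of the members were most abundant in the spleen. The 39 members summed to 1443 ppm in the spleen table, 232.7 in kidney and 139.7 in heart. They summed to 143.7 ppm in the liver-named table, and the brain-named one was lowest at 76.2. Of the 39, 36 had their highest value in the spleen, while 19.7% of all genes with a mean of at least 20 in some table did. The tables were normalised separately, so these levels carry no test, and they describe organs from different mice where spleen is concerned. For the 36, spleen was above the median of the other 4 tables by between 1.56-fold for Kif20a (a kinesin of cytokinesis) and 61.8-fold for Aurkb (the kinase of the chromosomal passenger complex), with a median of 12.4-fold.

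**Figure D1:**
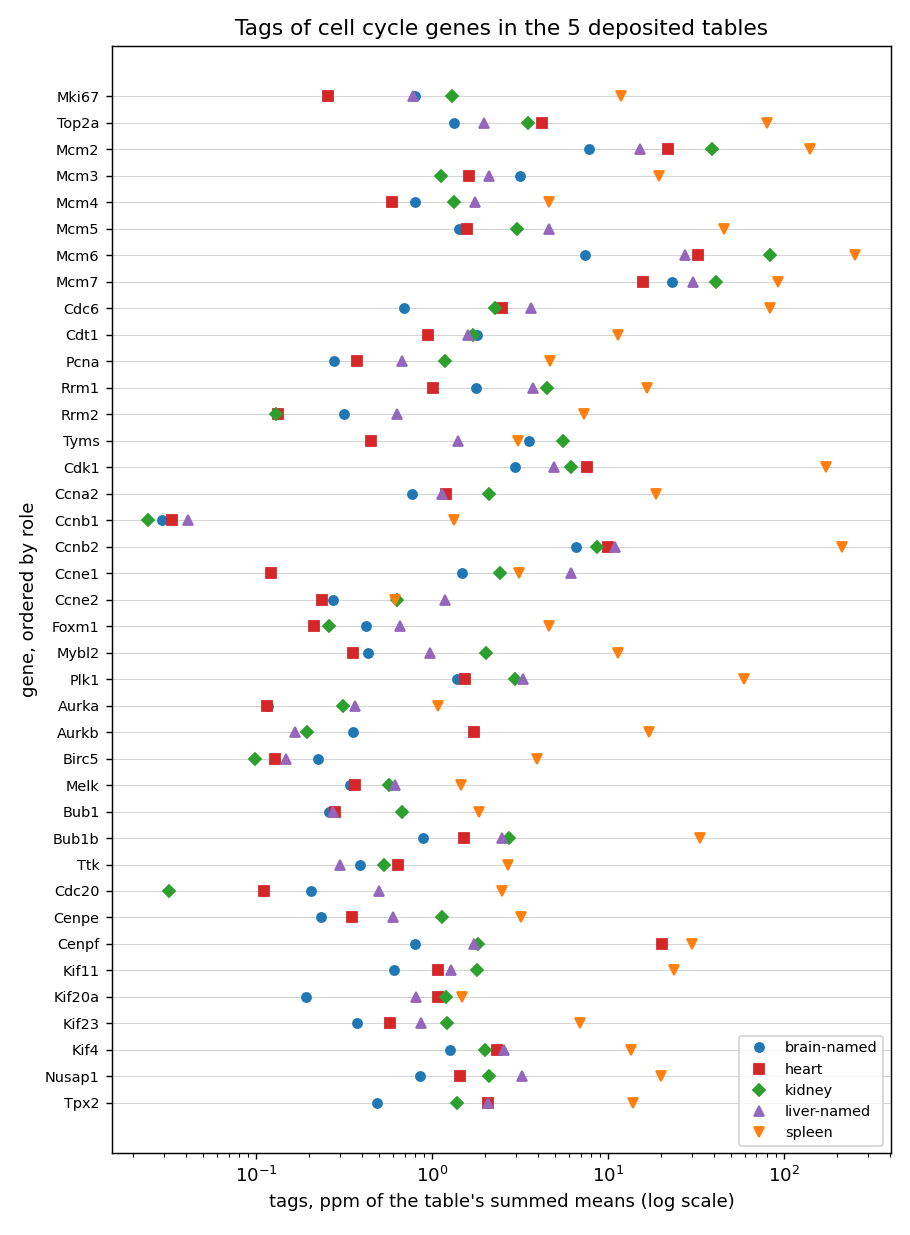
Tags in ppm of each table's summed means (horizontal axis, log scale) for the 39 members with values (vertical axis, ordered by role); each symbol is 1 deposited table, a mean over its libraries with no error given. The spleen symbol lies farthest to the right for 36 members, and Tyms, Ccne1 and Ccne2 are the exceptions.

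The order of the levels differed among members. Mcm6, a helicase subunit, stood in the authors' deposited tables at 254.7 ppm in spleen, 83.3 in kidney and 32.6 in heart, above 27.5 in the liver-named table, with 7.39 the lowest, in the brain-named one. Cdk1, the kinase that drives entry into mitosis, stood at 175.1 ppm in spleen and between 2.98 and 7.62 in the others. Ccnb1, a mitotic cyclin, stood at 1.34 in spleen and at or below 0.0413 elsewhere. In all 3 genes the spleen value was the highest, while the order of the other tables varied.
Spleen led by less for Cenpf, a kinetochore protein, at 30.1 ppm against 20.4 in heart, and for Kif20a, at 1.47 against 1.20 in kidney. The 3 exceptions were Tyms (thymidylate synthase), at 5.57 in kidney against 3.10 in spleen, and the cyclins of S phase entry Ccne1, at 6.20 in the liver-named table against 3.11 in spleen, and Ccne2, at 1.19 against 0.620. Whether neighbours in these orders differ beyond their spread cannot be read from means alone.

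Between genotypes, 2 of the 41 members passed the threshold in any table, and both rose in the Ftsj1_DF kidney. The threshold is an adjusted p under 0.05 in the authors' deposited DESeq2 results. Kif11 encodes the kinesin that pushes the spindle poles apart, and Bub1b encodes BubR1, a spindle checkpoint protein that holds back anaphase. In the authors' deposited kidney table, Kif11 had a mean of 88.1 and a log2 fold change of 3.07 ± 0.597 (SE), an 8.41-fold difference (DESeq2 adjusted p = 1.22e-04). Bub1b had a mean of 132.8 and a log2 fold change of 3.61 ± 0.992 (SE), a 12.2-fold difference (DESeq2 adjusted p = 0.0216). These are 2 of 31 tested members in the kidney table, where 2.07% of all 19630 tested genes passed in either direction and 1.21% passed as higher. Of the other 10 members there, 2 were listed at 0, 5 had a p but no adjusted p, and 3 had neither.

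**Figure D2:**
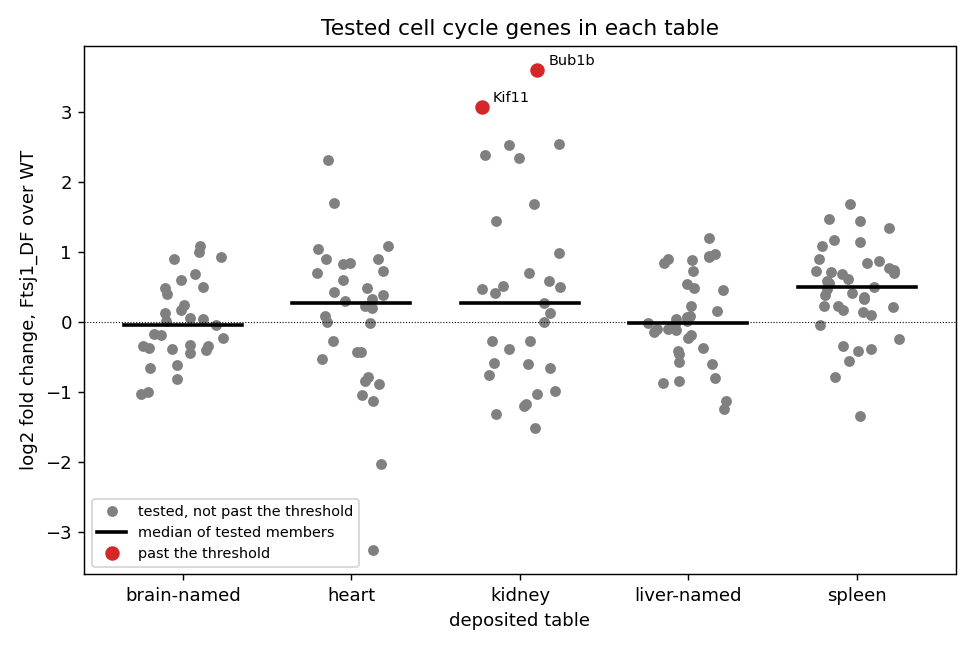
Log2 fold change of Ftsj1_DF over WT (vertical axis) for each tested member in each deposited table (horizontal axis); points are genes, black bars medians, and sideways spread is for legibility. Kif11 and Bub1b in the kidney table are the only points past the threshold, and the spleen median of 0.50 is the highest of the 5.

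The count of called members in the other tables was 0. Of 31 tested members of the brain-named table, 0 passed in DESeq2 (2 had an unadjusted p under 0.05) against 0.414% of all tested genes. In the heart 0 of 32 passed (5 unadjusted) against 1.19%. In the spleen 0 of 39 passed (1 unadjusted) against 0.217%. Of 35 in the liver-named table, 0 passed (0 unadjusted) against 0.203%. Among all tested genes, an unadjusted p under 0.05 was held by 11.9% in kidney, 10.8% in the brain-named table, 10.6% in heart, 5.97% in spleen and 10.4% in the liver-named table. The median log2 fold change of tested members was 0.50 in spleen, 0.27 in both heart and kidney, -0.04 for the brain-named table and -0.01 for the liver-named one, beside medians between -0.05 and 0.04 over all tested genes. The median standard error of the members ran from 0.538 in the brain-named to 0.932 in the kidney table.

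Kif11 and Bub1b were not past the threshold outside the kidney. In the authors' deposited tables, Kif11 had log2 fold changes of 1.47 ± 0.789 in spleen, 0.60 ± 0.645 in heart, 0.17 ± 0.629 in the brain-named table and -0.80 ± 0.574 (all SE) in the liver-named table. Bub1b lay between 0.39 and 0.58 in those tables. The kidney values were set against the others with a z test over all genes tested in both tables, adjusted over all 179711 differences, of which 0.324% passed.
Kif11 differed between kidney and the liver-named table by 3.87 ± 0.828 (SE; 95% interval 2.25 to 5.49; adjusted p = 0.00452). Its differences from the brain-named (adjusted p = 0.122), heart (0.283) and spleen (0.768) tables did not pass. The differences of Bub1b between kidney and the other tables did not pass either, with adjusted p between 0.242 and 0.396. Over all members, 1 of 305 such differences passed, and 29 had an unadjusted p under 0.05. With the standard errors widened by each table's spread of the test statistic, the Kif11 difference no longer passed (adjusted p = 0.073). The z test treats tables as independent, although all of them except spleen came from the same mice.

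**Figure D3:**
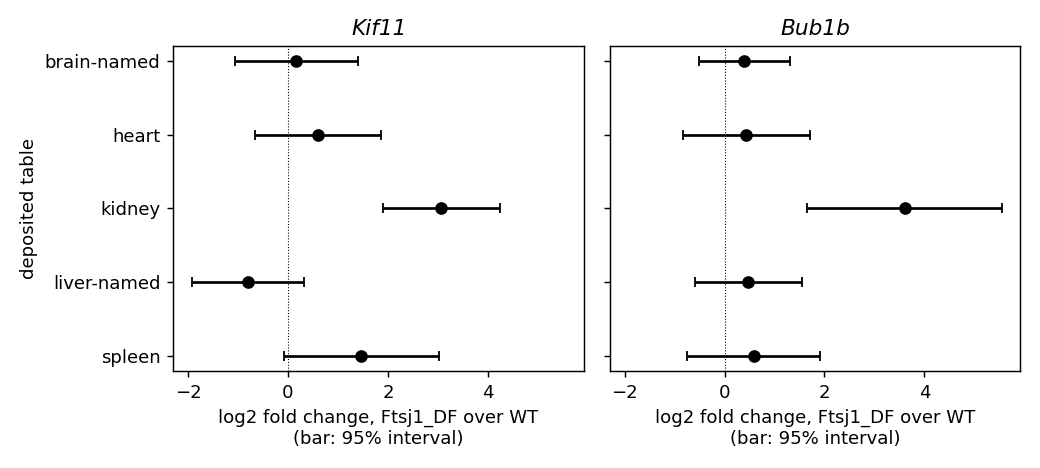
Log2 fold change of Ftsj1_DF over WT with its 95% interval (horizontal axis) for Kif11 (left) and Bub1b (right) in the 5 deposited tables (vertical axis). The kidney intervals lie above 0 for both genes, and the other 8 intervals include 0.

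How the kidney tags were spread over the libraries could be read in part. A mean over 6 libraries is a sum of whole tags divided by size factors, which were recovered from the smallest means, and for members with a mean under 100 the whole tags in each library were solved from the printed digits. Libraries are numbered by falling size factor. No label ties these libraries to a mouse or a genotype, and none was assigned from the values. In the kidney, 21 of the 39 members gave 1 solution, 3 gave several and 15 had a mean of 100 or more and were not searched, Bub1b among them. Kif11 gave 2 solutions. In the first, libraries 1 to 6 held 136.0, 225.2, 11.6, 27.2, 110.9 and 17.4 normalised tags. In the second they held 110.2, 11.03, 287.1, 76.8, 10.97 and 32.2. In both, 3 libraries lay at 76.8 or above and 3 at 32.2 or below. The 2 solutions differ in which libraries are high, and neither was chosen, since that would assign genotypes from the values.

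Some other members of the kidney table were carried mainly by 1 library. Kif20a had 15, 22, 2, 0, 252 and 7 tags in libraries 1 to 6. Library 5 held 88.0% of its normalised tags, and the authors' deposited table gives Kif20a a log2 fold change of 5.02 ± 1.63 (SE) with no p. Ccne2 had 6, 10, 2, 5, 134 and 1 tags. Library 5 held 88.3% of these after normalisation, and its deposited log2 fold change of 4.44 ± 1.54 (SE) in the authors' deposited table likewise has no p. The third member without a p was Cdc6, an origin licensing factor, at -2.31 ± 1.19 (SE) in the authors' deposited table, and its tags were not searched.
Kif4, a chromosome-bound kinesin, had 27, 158, 22, 11, 273 and 44 tags, with libraries 5 and 2 high. Tpx2, which activates Aurora A on the spindle, had 14, 163, 41, 36, 122 and 17, again with libraries 2 and 5 high. Bub1, a checkpoint kinase, was high in library 1 alone, with 146, 17, 27, 21, 6 and 16 tags. Mki67, the proliferation antigen, was highest in library 6, with 41, 43, 55, 19, 38 and 153 tags. The members thus did not share 1 high library. In 8 of the 21, 1 library held more than 50% of the normalised tags, against 1 of 26 in the brain-named, 4 of 28 in the heart and 2 of 18 in the liver-named table.

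**Figure D4:**
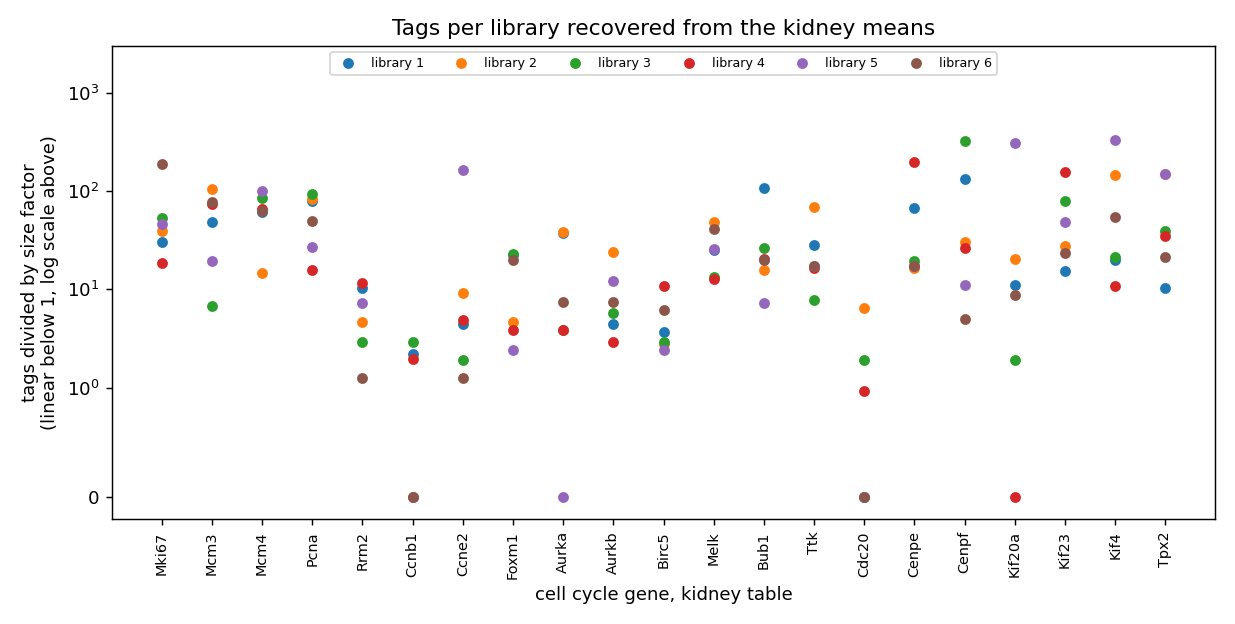
Tags divided by size factor (vertical axis, linear below 1 and log above) in each of the 6 kidney libraries (colours) for the 21 members with 1 solution (horizontal axis). Library 5 stands alone at the top for Ccne2 and Kif20a, while Bub1, Cenpe and Mki67 have their highest point in libraries 1, 4 and 6.

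The other kidney members did not pass. By role, the licensing and helicase genes had a median log2 fold change of 0.41 over 7 tested, led by Mcm5 at 2.55 ± 0.861 (SE; DESeq2 adjusted p = 0.0992 in the authors' deposited table). The spindle motors and microtubule proteins had a median of 1.69 over 5 tested, and besides Kif11 they held Kif4 at 2.53 ± 1.08 (SE; DESeq2 adjusted p = 0.266). The checkpoint genes had a median of 1.45 over 3 tested, the mitotic kinases 0.58 over 3, the replication clamp and nucleotide supply 0.27 over 3, and the cyclins with Cdk1 -0.49 over 4. Roles with no positive member were the proliferation markers Mki67 and Top2a, at -1.17 and -0.99, the transcription factors Foxm1 and Mybl2, at -0.66 and -0.76, and the kinetochore genes Cenpe and Cenpf, at -1.20 and -1.03. Of the 31 tested members 18 were positive, beside 49.1% of all tested genes. Kidney injury markers had 0 of 3 past the threshold. The adrenal marker Star, a cholesterol carrier of steroid-making cells, fell by 4.65 (log2) in the authors' deposited kidney table (DESeq2 adjusted p = 0.00135). Star was the only 1 of 4 adrenal markers tested there, and the 4 summed to 31.7 ppm. In the brain-named table, 1 of 2 tested adrenal markers also fell past the threshold. The part of Star in the kidney results was not tested.

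In the heart, members lay on both sides of 0 with wide errors. In the authors' deposited heart table Mcm2, a helicase subunit, stood nearest to the threshold at 1.08 ± 0.348 (SE; DESeq2 adjusted p = 0.0973). Ccna2, the cyclin of S phase and early mitosis, stood at -3.27 ± 1.08 (SE; adjusted p = 0.117). Its tags in the 6 heart libraries were 82, 208, 32, 2, 66 and 1, so libraries 4 and 6 were nearly empty and library 2 held 52.8% of the normalised tags. Cdc6 stood at 2.32 ± 0.841 (SE; adjusted p = 0.176) and Tpx2 at -1.13 ± 0.52 (SE; adjusted p = 0.384).
Mcm5 stood at 1.70 ± 0.797 (SE; adjusted p = 0.394), with 30, 11, 185, 117, 72 and 52 tags, so every library held some. Aurkb, at 2.55 ± 1.40 (SE) in the authors' deposited table, had no p in the heart. Of 32 tested members 19 were positive, beside 51.1% of all tested genes.

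Both members with an unadjusted p under 0.05 in the brain-named table, where hepatocyte tags prevailed, were negative. Plk1, the Polo kinase of mitosis, stood in the authors' deposited table at -1.03 ± 0.474 (SE; DESeq2 adjusted p = 0.374) and Mki67 at -0.998 ± 0.50 (SE; adjusted p = 0.445). Mki67 had 102, 36, 99, 46, 41 and 38 tags in the 6 libraries, with libraries 1 and 3 above the rest. Tested members of the liver-named table, with its neuronal tags, ranged from -1.25 for Bub1 to 1.20 for Tyms, with 17 positive and 18 negative.

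In the spleen, where tags were most abundant, 31 of 39 tested members were positive, beside 49.5% of all tested genes, but none passed in DESeq2. All 8 licensing and helicase genes were positive, from 0.23 for Mcm4 to 1.09 for Cdc6. Foxm1 and Mybl2, transcription factors of dividing cells, stood at 1.17 and 1.15. The 4 tested genes of the replication clamp and nucleotide supply ran the other way in 3 cases, from -0.56 for Rrm1 to 0.09 for Rrm2. Aurkb stood nearest to the threshold in the authors' deposited table at 1.69 ± 0.852 (SE; DESeq2 adjusted p = 0.823), followed by Kif4 at 1.45 ± 0.747. Ttk, a checkpoint kinase, was the lowest at -1.35 ± 0.971 (SE). These genes share the same 8 libraries, so the 31 directions are not independent.
Tested markers of blood cell precursors were positive as well. In the spleen 7 of 7 tested erythroid precursor markers were positive, with a median of 0.52 and a sum of 1201 ppm, against 23.6 to 245.8 in the other tables; Alas2 was listed at 0. All 7 neutrophil precursor markers were positive with a median of 1.51 and a sum of 295.2, and all 4 megakaryocyte markers with a median of 0.87 and a sum of 366.1. The highest marker alone held 781.1 ppm of the erythroid sum in spleen, 179.3 of the neutrophil sum and 323.5 of the megakaryocyte sum. It held 214.4 of the 245.8 ppm of erythroid markers in the liver-named table. None of these markers passed in DESeq2, and their part in the direction of the members was not tested. T cell markers were positive in 5 of 6 and B cell markers in 2 of 5. Germinal centre B cell markers were positive in 2 of 5, with a median of -0.20. Plasma cell markers were positive in 1 of 4 (median -0.57) and macrophage markers in 1 of 5 (median -0.36). The pancreatic acinar markers, whose tags the spleen table also held, were positive in 1 of 6 (median -0.50). Their part in the direction of the members was not tested either.

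Other cell cycle genes outside the 41 were counted in the same way. Of 35 further replication genes, 1 rose, in the heart: Mcm10, which helps to start the helicase, at 3.20 ± 0.922 (SE; DESeq2 adjusted p = 0.0462 in the authors' deposited table). Its heart tags were 25, 11, 97, 199, 5 and 15, with libraries 3 and 4 high, and library 4 held 59.9% of the normalised tags. Of 63 further mitosis genes, 2 rose, also in the heart. Ndc80, a kinetochore subunit, stood at 2.79 ± 0.677 (SE; DESeq2 adjusted p = 0.00909) and Kif22, a chromosome-arm kinesin, at 2.92 ± 0.653 (SE; DESeq2 adjusted p = 0.00312) in the authors' deposited table. In the heart 32 of the replication and 56 of the mitosis genes were tested, and 0.418% of all tested heart genes passed as higher.
No gene of these 2 lists fell in any table. Over all tested genes, the share that passed in either direction ran from 0.203% in the liver-named table to 2.07% in kidney. Of 14 G1 cyclins, kinases and E2F genes and of 22 brakes on the cycle, such as Cdkn1a, 0 passed in DESeq2 in any of the 5 tables, with up to 1 and up to 4 at an unadjusted p under 0.05 in a table. In the spleen, 25 of 34 tested replication genes, 48 of 62 mitosis genes and 10 of 14 G1 genes were positive, and 9 of 19 brakes were. How far this split between the lists exceeds the spread between mice was not tested.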

How the data were processed

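Per the labels' protocols, each library started from 5 ug of RNA, whose uncapped poly(A) part was sequenced as tags. Per the submitters' processing notes, the authors used GRCm39, featureCounts, Subread 2.0.3 and DESeq2 (version and model not given in the sources used here). Each deposited mean is a signal in counts divided by size factors, by the authors. The deposited fold changes and standard errors are on a log2 scale, the deposited Wald statistic is a score, and p-values, raw and adjusted, were deposited as the authors computed them. A row without a gene name (1 in each) was left out. Groups came from the sample titles, and all samples carry the same batch label.

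No gene was tested anew. "Tested" means that the table gives an adjusted p. Members and lists were chosen with earlier results of these data known. All members were accounted for; named in full were members past the threshold, up to 4 more per table with an unadjusted p under 0.05, and members of other lists past the threshold (up to 4). Other members were named for their level or tags, after their values were seen. Intervals are 95% normal intervals.

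Whole tags per library were solved, as a step added after seeing the data, for the 4 tables of 6 libraries, by trying all combinations that give the printed mean. Checked on genes with a mean under 5, 99% to 100% gave whole tags, and 10 of 10 did with a mean between 50 and 60. Means between 60 and 100 were not checked in this way. On simulated data the true tags were among the solutions in 12 of 12 cases per table. They were the only solution in 11 of 12 cases in kidney and in 12 of 12 in the other tables. These cases were built with the same recovered size factors, so they do not test errors in those factors. The z test was tried on simulated kidney shifts over 15601 genes. It called 20.5% of shifts of 2 and 73% of shifts of 4 (log2), and 24 of 177711 unchanged differences. That simulation drew independent tables with the deposited standard errors. It therefore does not cover shared mice or a statistic that spreads wider than those errors. Levels in ppm divide a mean by the table's sum, per 1000000. Python 3.11.15 was used with scipy 1.17.1, pandas 2.3.3, numpy 2.4.6 and, for plots, matplotlib 3.10.9.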

Additional observations from a re-analysis of the deposited data

Results flagged for a closer look

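The Kif11 response differed between 2 organs of the same mice: the log2 fold change in the kidney table exceeded that in the liver-named table by 3.87, with an adjusted p of 0.00452 in a z test over all genes and table pairs. The test treats these organs as independent although they came from the same mice, and with standard errors multiplied by each table's robust spread the difference did not pass (adjusted p = 0.073). It was 3.07 in the kidney and -0.80 in the liver-named table. In the liver-named table the recovered Kif11 tags were 202, 73, 81, 43, 76 and 74 in libraries 1 to 6, so library 1 was the highest there.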

How the results depend on the processing

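Of 50 comparisons of a main count or median with an alternative, 45 kept within the limits set and 5 moved. At a false discovery rate of 1%, and also with the test statistic divided by its robust spread, the kidney count fell from 2 to 1, since Bub1b no longer passed (adjusted p = 0.117 with the rescaled statistic), while Kif11 passed under all 7 alternatives. At 10% the kidney count was 3, with Mcm5, and the heart count was 1, Mcm2. With standard errors multiplied by the robust spread, the count of differences between tables was 0. The count of members with both the homology core and CCAAT in a promoter was 10 of 34 in the 250 bases before the start. The 36 members highest in spleen were 36 on both other scales. No paired analysis was possible because the deposited tables hold no values per library and no label ties the recovered libraries to a mouse. No replicate was left out, since that would need genotypes assigned from the values. Depth per library is unknown, and members with low means had wide errors or no adjusted p.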
